A study of Mus musculus with 2 samples.

Results

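Expression of 10 genes that write, maintain or remove DNA methylation, or make a substrate for its removal, was compared in transformed mouse bone marrow progenitors with and without a drug that activates Cre to remove Cebpa. That gene encodes the myeloid transcription factor C/EBPα. The genes were chosen by symbol from the deposited gene table: the methyltransferase genes Dnmt1, Dnmt3a, Dnmt3b and Dnmt3l, the maintenance partner Uhrf1, the dioxygenase genes Tet1, Tet2 and Tet3, and the isocitrate dehydrogenase genes Idh1 and Idh2. These are 10 of 23309 rows, each with a single row, the authors tested all 10, and 9 had 1 FPKM or more in the higher condition. FPKM counts sequenced fragments relative to the length of the transcript and the depth of the library. The cells were haematopoietic progenitors cultured from lineage-depleted marrow of Cebpaf/f;CreER mice, in which both Cebpa alleles carry loxP sites and a Cre recombinase is activated by 4-hydroxytamoxifen (4OHT). All had been transformed with the retroviruses MIGR1-HA-Hoxa9 and MIGR1-Flag-Meis1 and grown with IL3. Treatment lasted 72 h, with either 5 nM 4OHT or its solvent ethanol, here called vehicle. The vehicle cells carry the same alleles, CreER and viruses, and no sample here has 4OHT or Cre activity with Cebpa kept, so an effect of Cebpa loss and an effect of the drug or of Cre cannot be told apart. The sources used here give neither the promoter behind CreER nor the number of animals or clones behind each culture.

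Because the 2 replicates of a condition were joined into 1 sample, a gene has 1 value with vehicle and 1 with 4OHT, no spread between replicates and no read count. Cebpa itself stood at 109 FPKM with vehicle and 42.8 FPKM with 4OHT, 39.2% of the vehicle level. A gene rose or fell here if its q in the authors' deposited table was under 0.05. By that rule 2.80% of all tested rows rose and 3.11% fell. Measured means 1 FPKM or more in the higher condition. Of 6 progenitor markers (Kit, Cd34, Flt3, Myb, Gata2 and Sox4) all were measured and 5 rose. Their summed level was 563 FPKM with vehicle and 865 FPKM with 4OHT, of which Cd34 alone had 284 and 493 FPKM. Of 14 granulocyte and monocyte markers 11 were measured, 9 fell and none rose. The sum of the 14 went from 6792 to 4657 FPKM, of which Ctsg alone had 3175 and 2146 FPKM. The 9 lymphoid markers reported here reached at most 0.125 FPKM, and 5 of them (Cd3e, Cd3g, Cd4, Pax5 and Ms4a1) were listed at 0 in both conditions. Among markers of other lineages, 1 of 10 erythroid and megakaryocyte genes (Itga2b), 1 of 8 mast cell and basophil genes (Cpa3) and 1 of 6 stromal genes (Pdgfrb) rose and none fell, with sums of 54.0 and 103 FPKM, 664 and 1086 FPKM, and 221 and 202 FPKM. Itga2b, at 40.3 and 88.8 FPKM, and Cpa3, at 562 and 975 FPKM, made up most of their sums. Most of the stromal sum was Pecam1, which was not called (214 and 189 FPKM). The sums of these other lineages therefore do not show a shift across a whole list. Among the same markers Mcpt4 and Col3a1 were listed at 0. The part of these shifts in the results on methylation genes was not tested, and in bulk RNA fewer cells of a type and less RNA per cell cannot be told apart.

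Cytosine methylation in mammals is placed by Dnmt3a and Dnmt3b on unmethylated DNA, with the catalytically inactive Dnmt3l as their partner, and is copied at replication by Dnmt1, which Uhrf1 brings to hemimethylated sites. Tet enzymes oxidise methylcytosine, using 2-oxoglutarate, iron and oxygen, as a step toward its removal. Idh1 in the cytosol and Idh2 in mitochondria make 2-oxoglutarate from isocitrate. Several of these genes, DNMT3A, TET2, IDH1 and IDH2 among them, are recurrently mutated in human acute myeloid leukaemia.

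After 4OHT, Dnmt3l and Idh1 fell, Dnmt3b and Tet1 rose, and the other 6 genes did not pass the test. A gene was called when the authors' deposited table gave it a q-value under 0.05. That made 4 of 10 members called, 2 in each direction, where 5.91% of all 11953 tested rows were called, 2.80% higher and 3.11% lower. At a q under 0.01 the members called were Dnmt3l and Idh1 (3.84% of tested rows), and at a q under 0.10 the same 4 genes (7.08% of tested rows). By a change of at least 1.5-fold alone, among rows of 1 FPKM or more, Dnmt3l and Idh1 remained, where 7.89% of such rows passed. The 6 uncalled genes had log2 ratios of 4OHT over vehicle between -0.20 and 0.29. The largest log2 change among the 10 was the fall of the cofactor Dnmt3l. The methyltransferase group held 1 rise and 1 fall, the Tet enzymes 1 rise and the Idh pair 1 fall.

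**Figure D1:**
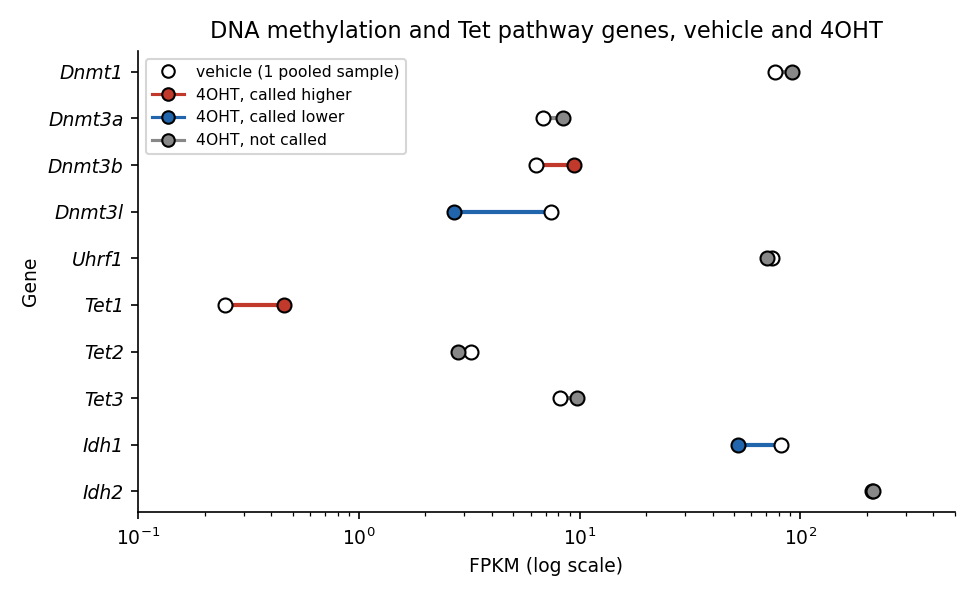
FPKM on a log axis of each of the 10 genes in vehicle cells (open circles) and after 4OHT (filled circles), 1 pooled sample per condition, joined by a line coloured by the call in the authors' deposited table. Dnmt3l moves left from 7.45 to 2.69 FPKM and Idh1 from 81.8 to 51.9 FPKM, Dnmt3b and Tet1 move right, and both circles of Idh2 lie on each other.

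The 4 called genes differ in the base composition of their promoters, and their sequences are shown for that reason. All 10 genes matched RefSeq promoter windows of build GRCm38.p6, 18 start sites in all, each covering 250 bases before and 50 bases after the start. The deposited loci are on mm9, so the 2 sets of coordinates are not comparable, and the sources used here do not say which start these cells use. Below are the 250 bases before the most upstream listed start of each called gene, 5′ to 3′, with every CpG, the site of methylation in mammals, in capitals. Dnmt3l lies at chr10:78042037-78042286, plus strand, Dnmt3b at chr2:153649199-153649448, plus strand, Idh1 at chr1:65186480-65186729, minus strand, and Tet1 at chr10:62887325-62887574, minus strand.
Dnmt3l: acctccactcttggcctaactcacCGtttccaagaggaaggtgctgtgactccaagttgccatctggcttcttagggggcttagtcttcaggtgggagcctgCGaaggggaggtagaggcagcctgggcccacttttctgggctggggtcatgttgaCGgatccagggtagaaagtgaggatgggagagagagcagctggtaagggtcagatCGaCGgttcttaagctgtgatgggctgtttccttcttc
Dnmt3b: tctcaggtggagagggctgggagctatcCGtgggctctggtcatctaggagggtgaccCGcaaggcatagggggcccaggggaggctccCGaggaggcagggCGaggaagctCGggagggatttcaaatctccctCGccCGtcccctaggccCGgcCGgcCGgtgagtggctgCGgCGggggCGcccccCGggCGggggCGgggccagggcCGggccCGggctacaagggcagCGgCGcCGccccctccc
Idh1: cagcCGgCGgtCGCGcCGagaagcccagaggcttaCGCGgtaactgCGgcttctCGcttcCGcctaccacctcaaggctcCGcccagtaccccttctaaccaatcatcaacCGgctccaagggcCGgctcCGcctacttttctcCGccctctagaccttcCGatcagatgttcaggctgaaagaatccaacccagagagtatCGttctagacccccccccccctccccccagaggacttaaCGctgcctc
Tet1: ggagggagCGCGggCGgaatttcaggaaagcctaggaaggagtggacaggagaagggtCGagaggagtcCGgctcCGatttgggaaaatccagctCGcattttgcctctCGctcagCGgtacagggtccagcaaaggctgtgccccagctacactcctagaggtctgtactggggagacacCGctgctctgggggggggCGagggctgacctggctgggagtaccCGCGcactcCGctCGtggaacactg
In these stretches Dnmt3l has 5 CpGs, Dnmt3b 21, Idh1 18 and Tet1 15.

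Over the whole 300-base windows, the 3 Dnmt3l starts held 6, 4 and 3 CpGs, below the median of 7 over all 32817 windows in each case. Every other member had at least 1 window above that median. The counts were 30 for Dnmt3b, 17 for Tet1, 20 for Idh2, 22 for Tet3, 23 at both Idh1 starts and 57 for Tet2. Tet2 had more CpGs than 99.8% of windows. Dnmt3a had 46, 47 and 18, Uhrf1 12 and 33, and Dnmt1 2, 12 and 33 from its most upstream start to its most downstream. CpG content did not sort the called genes by direction, since the windows of Idh1, which fell, and of Tet1 and Dnmt3b, which rose, were all CpG-rich next to that median. The letters TTGCNNAA, which fit the palindromic core that C/EBP proteins prefer, were searched on both strands in all windows, overlapping matches included. They occurred in 0 of the 18 member windows and in 10.8% of all windows, which says only that these letters are not in these windows.

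**Figure D2:**
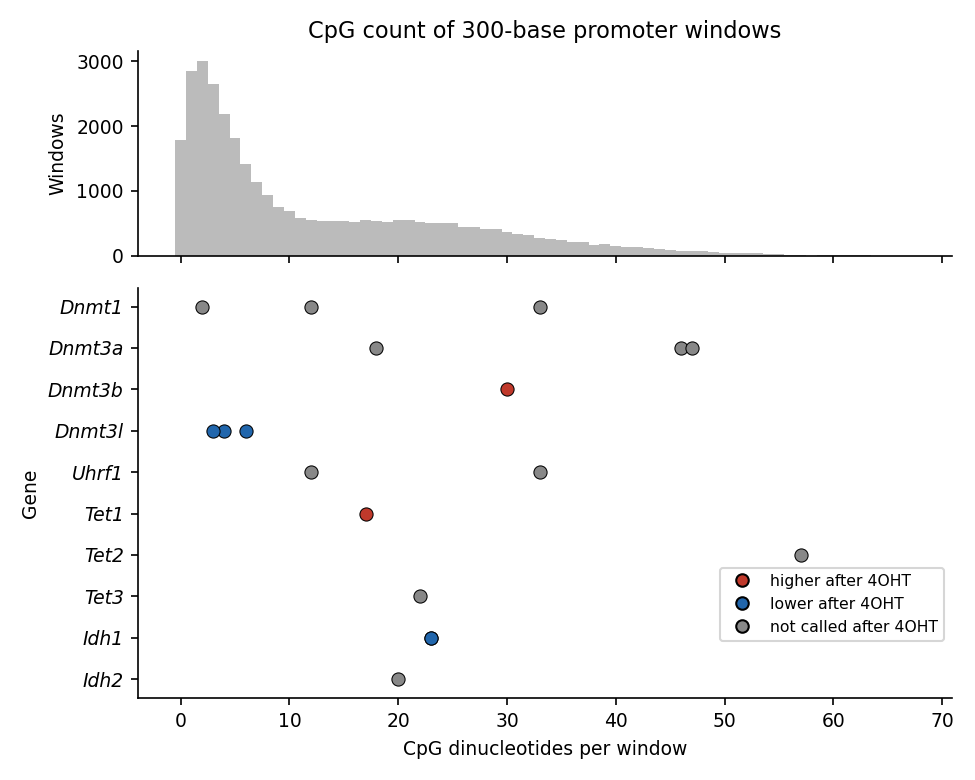
The upper panel counts 300-base RefSeq promoter windows by their number of CpG dinucleotides, and the lower panel marks the windows of the 10 genes, coloured by the call after 4OHT. The 3 Dnmt3l windows, with 3 to 6 CpGs, sit in the low peak of the upper panel, Idh1 has 2 windows at 23 that overlie each other, and Tet2 lies at the far right with 57.

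Among the de novo methyltransferases, the inactive partner Dnmt3l fell, the enzyme gene Dnmt3b rose and Dnmt3a did not pass the test. Dnmt3l stood at 7.45 FPKM with vehicle and 2.69 FPKM with 4OHT, which left 36.2% of the vehicle level. This 2.77-fold fall (log2 ratio -1.47) had q = 0.00165 in the authors' deposited table, the smallest q that table holds. That q belongs to the smallest deposited p, 5e-05. Other rows share it, Cebpa among them, so it does not rank Dnmt3l above them. Only 1.20% of tested rows had a lower log2 ratio. On mm9 the deposited locus of Dnmt3l is chromosome 10, 77492767 to 77526360, a span given in the same words for its neighbour Aire, which was listed at 0 and 0.0251 FPKM. The sources used here do not say whether the libraries kept strand, and without strand only reads from sequence that both genes share cannot be told apart.

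Dnmt3b stood at 6.35 FPKM with vehicle and 9.38 FPKM with 4OHT. The rise was 1.48-fold (log2 ratio 0.56, q = 0.0367 in the authors' deposited table) for the locus on mm9 chromosome 2, 153475185 to 153513466. The same table holds a stricter yes or no column, which in all 23309 rows equals a q under 0.05 with at least a 1.5-fold change. By that rule 5.26% of tested rows and 3 members were called, Dnmt3l, Idh1 and Tet1, and Dnmt3b was marked no. Dnmt3a, the main de novo enzyme of adult blood stem cells, had 6.83 and 8.37 FPKM (mm9 chromosome 12, 3806980 to 3914443). Its ratio of 1.23 was in the same direction as that of Dnmt3b but did not pass the test (q of 0.519, authors' deposited table). The difference between the changes of Dnmt3a and Dnmt3b was not tested.

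The RNA levels of cofactor and enzymes were set side by side as FPKM, and their protein levels are not known here. Dnmt3l amounted to 56.5% of the summed Dnmt3a and Dnmt3b level in vehicle cells (7.45 against 13.2 FPKM) and to 15.2% after 4OHT (2.69 against 17.7 FPKM). Within the pair, Dnmt3b was at 0.930 of the Dnmt3a level with vehicle and at 1.12 of it with 4OHT. In vehicle cells these 3 genes lay between 6.35 and 7.45 FPKM with Dnmt3l the highest, and after 4OHT Dnmt3l was the lowest of them. With no replicate spread, the order of genes this close in level cannot be judged.

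The maintenance genes were the more abundant by FPKM, with Dnmt1 at 5.84 times the summed level of Dnmt3a and Dnmt3b in vehicle cells and at 5.18 times after 4OHT, and neither was called. Dnmt1 had 77.0 FPKM with vehicle and 92.0 FPKM with 4OHT, a ratio of 1.20 whose q in the authors' deposited table was 0.645 (mm9 chromosome 9, 20711650 to 20764332). Uhrf1 had 74.7 and 70.5 FPKM, a ratio of 0.945 whose q there was 1.00 (chromosome 17, 56442760 to 56462909). The level of Uhrf1 was 0.970 of that of Dnmt1 with vehicle and 0.767 of it with 4OHT. Both genes are known to be expressed with DNA replication. Of 20 measured S phase genes none passed the test, where 5.91% of all tested rows did. The median log2((4OHT FPKM + 1)/(vehicle FPKM + 1)) of the 20 was 0.005, beside 0.0003 over all 10989 measured rows. At a deposited p under 0.05, unadjusted, 1 of those 20 was counted, where 12.3% of all tested rows were. That gene was Rrm2, a ribonucleotide reductase subunit, named after its values were seen, with 128 and 92.4 FPKM and a q of 0.0601 (authors' deposited table). Pcna, the sliding clamp that Dnmt1 binds, had 399 and 389 FPKM, and Mcm3, a subunit of the replicative helicase, 204 and 209 FPKM.

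The Tet genes were led by Tet3, and the member that rose was the least abundant. Tet1 had 0.246 FPKM with vehicle and 0.455 FPKM with 4OHT, a 1.85-fold rise (log2 ratio 0.89, q of 0.0201, authors' deposited table). Its locus is on mm9 chromosome 10, 62267318 to 62342762. Both values lie under the 1 FPKM used here as the limit of a measured gene. On the log2(FPKM + 1) scale the Tet1 difference was 0.22, much like the 0.22 of Tet3, which was not called. Tet3 had 8.16 and 9.67 FPKM (q = 0.706 in the authors' deposited table, chromosome 6, 83312368 to 83391672). Tet2, a frequent target of mutation in blood cancers, had 3.23 and 2.82 FPKM (q = 0.999 there, chromosome 3, 133126641 to 133207354), the lower value after 4OHT.

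Taken as shares of the summed Tet level, which was 11.6 FPKM with vehicle and 12.9 FPKM with 4OHT, Tet3 made up 70.1% and 74.7%, Tet2 27.8% and 21.8%, and Tet1 2.12% and 3.52%. The rise of Tet1 therefore added 0.209 FPKM to the sum. The summed level of the catalytic methyltransferases Dnmt1, Dnmt3a and Dnmt3b was 90.1 and 109.8 FPKM, 7.74 times the summed Tet level in vehicle cells and 8.48 times after 4OHT.

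The enzymes that make 2-oxoglutarate from isocitrate were the most abundant members in vehicle cells, and the cytosolic enzyme fell while the mitochondrial enzyme did not pass the test. Idh1 stood at 81.8 FPKM with vehicle and 51.9 FPKM with 4OHT, 63.4% of the vehicle level. The log2 ratio was -0.66, with q = 0.00310 in the authors' deposited table, for the locus on mm9 chromosome 1, 65205190 to 65233053. Idh2, its mitochondrial counterpart, had 211.8 and 212.0 FPKM and a q of 1.00 there (chromosome 7, 87239734 to 87260236). Idh1 was at 38.6% of the Idh2 level in vehicle cells and at 24.5% of it after 4OHT, and the 2 genes together went from 294 to 264 FPKM. The difference between their changes was not tested.

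The calls were set beside those of other genes of like level, taken here as tested rows within 1.5-fold of the member's higher value. Such rows were not matched on transcript length or number of fragments, so they do not measure how reliable a member's call is. For Dnmt3l, 9 other such rows changed by a like amount (within 0.05 on the log2 scale, in either direction) and 8 of them were called. For Idh1, 12 of 15 were called. For Dnmt3b, 17 of 38 like rows were called. For Tet1 the counts were 1 of 23, and no tested row of its level was called with a smaller change, while 7.15% of all tested rows under 1 FPKM were called. Changes the size of those of Dnmt1 (87 like rows), Dnmt3a (175 rows) and Tet3 (281 rows) were called in none of the other rows. The smallest log2 change called at the level of Dnmt1 was 0.48, and at the levels of Dnmt3a and Tet3 it was 0.49. The ratios of 1.18 to 1.23 in those 3 genes were below what was called at their levels, so a change of that size is not shown to be absent.

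**Figure D3:**
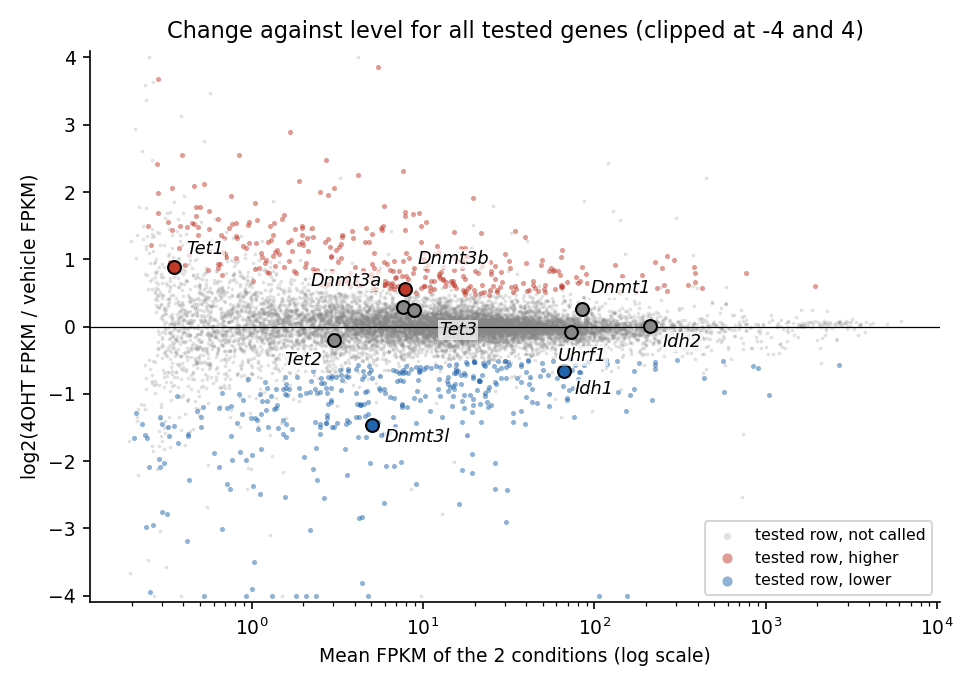
Log2 ratio of 4OHT over vehicle FPKM (clipped at -4 and 4) against mean FPKM on a log axis for every tested row above 0 in both conditions, coloured by the call in the authors' deposited table, with the 10 genes named. Dnmt3l and Idh1 lie in the blue band of rows called lower, Dnmt3b lies at the lower edge of the red band, Tet1 lies at the far left where few rows of its change were called, and the other 6 genes lie in the grey band.

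Position in the genome was examined through the deposited loci themselves. Within 100 kb of the 10 genes lay 55 other entries, counted once for each member, of which 39 were tested. By the q of the authors' deposited table none of these 39 was called, against 5.91% of all tested rows, and 3 had an unadjusted deposited p under 0.05, against 12.3%. Around Dnmt3l, the 5 tested neighbours included Icosl (4.50 and 3.84 FPKM), Pfkl (78.1 and 67.7 FPKM) and Trpm2 (2.29 and 3.06 FPKM). Next to Idh1, Pikfyve had 4.39 and 4.37 FPKM. Beside Tet1, Stox1 had 0.285 and 0.514 FPKM (q of 0.245, authors' deposited table). These 5 neighbours were picked after their values were seen.

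No listed gene that works with the methyltransferases, reads methylated CpG or is related to such a reader was called, where 5.91% of all tested rows were. Of 17 listed partners in maintenance and recruitment, among them the deubiquitinase Usp7, the remodeller Hells and the H3K9 methyltransferases, 16 were measured and none passed the test, nor did any have an unadjusted deposited p under 0.05. Their median log2((4OHT FPKM + 1)/(vehicle FPKM + 1)) was 0.04, and Dppa3 was listed at 0. Trim28, a corepressor, had 144 and 157 FPKM, and Cdca7, a partner of Hells, 95.1 and 102 FPKM. Of 10 genes listed as methyl-CpG readers or their relatives, 9 were measured and none passed the test. An unadjusted deposited p under 0.05 was found for 1 of the 10, near the 12.3% of all tested rows. Their median was 0.13. Mbd2 had 64.8 and 74.1 FPKM and Mbd3, the related subunit of the NuRD complex, 66.6 and 67.8 FPKM.

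On the Tet side, 2 of 11 listed partners rose and none fell, both among the 6 that were measured and tested, where 2.80% of all tested rows rose. Cxxc5, whose CXXC protein binds unmethylated CpG and interacts with Tet2, rose from 15.3 to 26.7 FPKM (q of 0.00165, authors' deposited table). Ebf1, a B lineage factor reported to bind Tet2, rose from 0.754 to 1.54 FPKM (q of 0.0301, authors' deposited table). Ebf1 was under 1 FPKM with vehicle, so it counts as measured through its 4OHT value alone. The list median was 0.09, or 0.03 with a filter of 5 FPKM, which leaves Ebf1 out. Sall4 and Prdm14 were listed at 0. Of 14 genes of base excision repair, a pathway that can replace oxidised cytosine, and related factors, 12 were measured. None of the 14 passed the test, nor did any have an unadjusted deposited p under 0.05. Over all tested rows 5.91% passed the test and 12.3% had such a p. The median of this list was 0.02. Apex1, the abasic site endonuclease, had 109 and 116 FPKM and Parp1 75.4 and 82.5 FPKM.

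Supply of the methyl donor and of 2-oxoglutarate was covered by 2 further lists. Of 22 entries of the S-adenosylmethionine and folate cycles 18 were measured. Of these 18, 1 fell and none rose, where 5.91% of all tested rows were called. Cth, cystathionine gamma-lyase, which makes cysteine from cystathionine, fell from 12.2 to 6.29 FPKM (q of 0.00165, authors' deposited table). Mat2a, the enzyme that makes S-adenosylmethionine in most tissues, had 214 and 213 FPKM, and Mat1a and Bhmt were listed at 0. The list median was -0.02. Of 29 genes that supply or remove 2-oxoglutarate or stand beside it in the citric acid cycle, 28 were measured. None of them passed the test, nor did any have an unadjusted deposited p under 0.05. Over all tested rows 5.91% passed the test and 12.3% had such a p. The log2((4OHT FPKM + 1)/(vehicle FPKM + 1)) of the 28 genes ran from -0.28 to 0.12, with a median of -0.005. Idh1 was outside that range, at -0.65 on the same scale. Mdh2, mitochondrial malate dehydrogenase, had 367 and 341 FPKM and Psat1, which makes 2-oxoglutarate in serine synthesis, 304 and 320 FPKM.

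**Figure D4:**
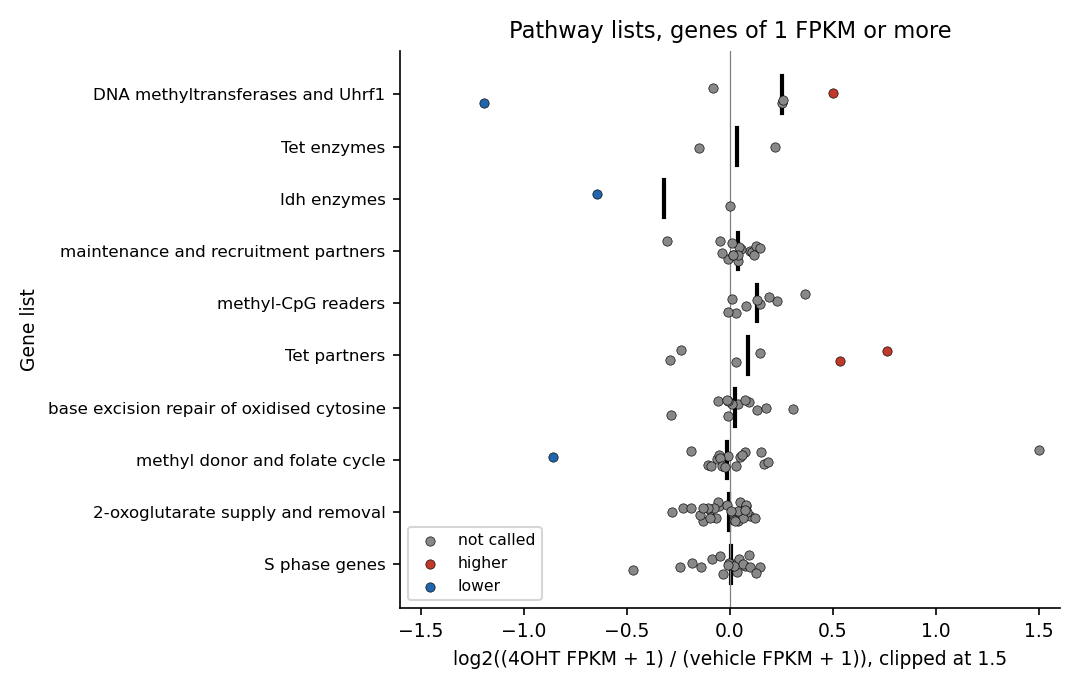
Log2((4OHT FPKM + 1)/(vehicle FPKM + 1)) of each gene of 1 FPKM or more in the 3 member groups and 7 further lists, with the list median as a bar and points spread vertically for sight only. Called genes are Dnmt3l, Dnmt3b, Idh1, Cxxc5, Ebf1 and Cth, Tet1 is not drawn because it is under 1 FPKM, and the grey point clipped at 1.5 is the joined row of Amd1 and Amd2, which was not called.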

How the data were processed

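RNA sequencing of mouse bone marrow progenitors gave 2 samples, vehicle and 4OHT. Per the submitters' processing notes the tools were Cuffdiff 2.0.2, Bowtie2 2.0.0.7 and CASAVA 1.8.2 and the build mm9, the role of each unstated. Per the file headers, the authors deposited FPKM per gene and condition with a p-value and a q-value, with no word on the scaling between conditions. All deposited p-values of tested rows are whole multiples of 5e-05, and q equals a Benjamini-Hochberg adjustment over the 11953 tested rows, to within 5.28e-07. The test behind these p-values is not stated. Per the labels, each sample joins 2 replicates, so depth and spread are unknown and no test was run here. Rows of status OK with q under 0.05 in the deposited table were called, and rose and fell are used for those.

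The members and all lists were chosen with earlier results of these data known. Named are all 10 members, every called gene of a pathway list and, where under 2 were called, its most abundant uncalled genes. Some other genes were named outside this rule, among them P4ha1, Kdm5b and Egln3. A lymphoid marker of the planned list is not reported here. Of 214 list entries, 211 matched by symbol, 2 through rows that join several symbols and 1 by its former name. Medians use a pseudocount of 1 and genes of at least 1 FPKM. The code for ratios, calls and the adjustment was run on simulated data in which planted changes were given a low p. That checked the code, not the deposited calls. Promoter sequences are RefSeq's, GRCm38.p6. Alternatives tried were other q thresholds, a fold threshold, pseudocounts of 0.1 and 1, filters of 0 and 5 FPKM, scaling by summed FPKM and centring. Python 3.11.15 and pandas 2.3.3 were used.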

Additional observations from a re-analysis of the deposited data

How the results depend on the processing

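The 2 members called lower, Dnmt3l and Idh1, stayed so at a q under 0.01 in the authors' deposited table, at a q under 0.10, and at a 1.5-fold threshold with or without the q. The count of members called higher moved. It was 2 at a q under 0.05 or under 0.10, 0 at a q under 0.01, and 0 by a change of at least 1.5-fold with 1 FPKM or more and no test, since Tet1 is under 1 FPKM and Dnmt3b under 1.5-fold. It was 1, Tet1, at a q under 0.05 with at least 1.5-fold, a rule added after the data were seen. None of the 40 member log2 ratios under another pseudocount or scaling changed sign. With a pseudocount of 1 the log2 ratio was 0.22 in place of 0.89 for Tet1 and -1.19 in place of -1.47 for Dnmt3l. Of 40 list medians under other settings 38 moved by less than 0.1, and the median of the Tet genes went from 0.04 to 0.22 with no filter and to 0.22 with a filter of 5 FPKM, where different genes enter. No paired analysis was possible because each condition has 1 column that joins its replicates, and for the same reason no replicate could be left out. The table holds no counts, so the limit that depth sets is of unknown size.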

Other observations

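Tet enzymes belong to a wider group of dioxygenases that use 2-oxoglutarate, and 28 others were looked up in a list added after the main results were seen. All 28 were measured, 3 fell and none rose, where 3.11% of all tested rows fell and 2.80% rose. Plod1, a lysyl hydroxylase, fell from 32.3 to 14.9 FPKM and Plod3, a related enzyme, from 59.9 to 35.9 FPKM, each at the smallest q of the authors' deposited table, 0.00165. P4ha2, a prolyl hydroxylase subunit, fell from 4.45 to 2.68 FPKM, with q = 0.0434 there, and its relative P4ha1 had 30.7 and 24.5 FPKM with a q of 0.394. The listed histone demethylases and the nucleic acid demethylases of the Fto and Alkbh families held no called gene. Kdm5b had 10.1 and 13.3 FPKM (q of 0.177, authors' deposited table). Egln3, an oxygen sensor that hydroxylates Hif1a, had 69.0 and 51.0 FPKM (q of 0.0985, authors' deposited table). P4ha1, Kdm5b and Egln3 were named outside the rule used for the other lists, after their values were seen. An unadjusted deposited p under 0.05 was found for 6 of the 28, where 12.3% of all tested rows had one. The list median was 0.05 on the log2(FPKM + 1) scale.

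The joined row of Amd1 and Amd2, near-identical genes whose enzyme uses S-adenosylmethionine for polyamine synthesis, had 0.0203 FPKM with vehicle and 8.35 FPKM with 4OHT. It was tested and not called, its q in the authors' deposited table being 0.716. The sources used here do not say how reads matching both copies were handled.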
